A study of Homo sapiens with 2 samples.

Results

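NFE2L2 encodes NRF2, the transcription factor that switches on antioxidant and detoxifying genes, and KEAP1 encodes the adaptor that marks NRF2 for destruction. These genes and 8 well-known NRF2 targets (NQO1, HMOX1, GCLC, GCLM, TXNRD1, SRXN1, AKR1C1 and AKR1B10) were chosen by name, 10 of the 19198 genes with a usable name in the deposited tables. The choice was made with earlier results of these data known. The 10 genes were read in 2 libraries, 1 from A549-NICD1 cells and 1 from A549-Vector cells. A549 is an established line of human non-small-cell lung carcinoma (NSCLC), and both cultures carry that label. A549-NICD1 cells overexpressed NICD1, the part of NOTCH1 that is cut free inside the cell, enters the nucleus and acts with the DNA-binding protein RBPJ, and A549-Vector cells were the vector control. In the study's methods, NICD1 was cloned into a lentiviral vector and stable lines were kept under antibiotic selection. The methods give the length of selection, but the time of harvest and the number of clones are not given in the sources used here. With 1 library per condition there is no replicate check, and no test of the effect of NICD1 was possible.

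In unstressed cells KEAP1 holds NRF2 and hands it to a CUL3 ubiquitin ligase, so that little NRF2 reaches the nucleus. Oxidants and electrophiles modify KEAP1, and NRF2 then accumulates, pairs with a small MAF protein and binds antioxidant response elements (AREs) near its targets. BACH1 competes for the same elements, most of all at HMOX1. A549 cells are widely used as a lung cancer model in which KEAP1 is inactivated by mutation, NRF2 is constantly active, and NQO1, AKR1B10 and AKR1C1 are among the most abundant messages.

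The promoters were examined because the ARE is the sequence through which NRF2 reaches its targets and the RBPJ site is the one through which NICD1 does. RefSeq promoters (GRCh38.p14, 250 bases before to 50 bases after the start) were matched for 8 members, all but HMOX1 and AKR1B10. The ARE core TGACNNNGC was searched on both strands and occurred in 2 of the 8, against 13.6% of all 27305 promoters. The RBPJ core GTGGGAA, also searched on both strands, occurred in 3 of the 8, against 6.28% of all. Among 9657 promoters of genes that pass the level filter given below, the shares were 15.0% for the ARE core and 5.52% for the RBPJ core. Counts among 8 promoters are not read as a result about the members. The windows below run 5′ to 3′ on the strand of the gene, with the core, or its reverse complement, in capitals. The first 3 hold the ARE core and the last 3 the RBPJ core.
GCLM, chr1:93909446-93909474, minus strand: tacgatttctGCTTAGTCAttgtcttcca
TXNRD1, chr12:104215670-104215698, plus strand: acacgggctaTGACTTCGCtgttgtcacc
TXNRD1, chr12:104215761-104215789, plus strand: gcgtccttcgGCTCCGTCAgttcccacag
TXNRD1, chr12:104215771-104215797, plus strand: gctccgtcagTTCCCACagggccttgt
NFE2L2, chr2:177264289-177264315, minus strand: gggcgaacggGTGGGAAgttgcgggaa
GCLC, chr6:53545182-53545208, minus strand: gcccccgcggTTCCCACcgggcttcag

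The core in GCLM began 34 bases before the start, read as its reverse complement. In TXNRD1 the ARE cores began 99 and 8 bases before the start, and the later one is followed by the RBPJ core, which began 2 bases after the start, so that these windows overlap. The RBPJ core in NFE2L2 began 174 bases before the start, and that in GCLC 97 bases before it. The starts are those of the RefSeq entries, which can lie inside the GENCODE gene spans. These matches describe the letters in a short window and are not binding sites. KEAP1, NQO1, SRXN1 and AKR1C1 had neither core in their window. Sequence outside the window was not searched, so this does not mean that a gene lacks such a site.

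Levels are given in FPKM, reads scaled to gene length and library size, so genes of different length can be compared. Where values are paired, that of A549-Vector comes first. The depths recovered from the values were 48602848 reads for A549-Vector and 48528434 for A549-NICD1. Reads of single genes are the smallest whole numbers that give both deposited values at these depths. If the depths are right, the counting intervals are thus never narrower than the true ones. They hold the error of counting alone, because such reads carry no molecular identifiers and need not be separate molecules. Log2 fold changes are of A549-NICD1 over A549-Vector, after dividing A549-NICD1 by a scaling factor of 0.958 and adding 0.1 FPKM to both, which understates the change of genes near that level. A difference was counted when it reached 1.5-fold in a gene with a mean of at least 1 FPKM over both libraries, a condition met by 12263 genes and by 8 of the 10 members. AKR1C1 and AKR1B10 did not meet it. As a check of the labels, NOTCH1 was at 5.40 FPKM in A549-Vector against 2865 FPKM in A549-NICD1.

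None of the 8 members reached 1.5-fold in either direction. Among all 12263 genes, 1.97% were at least 1.5-fold higher in A549-NICD1 (242 genes) and 2.29% were at least 1.5-fold lower (281 genes). Without scaling this split was 198 higher and 361 lower. The median log2 fold change over the 8 members was 0.05, against 0.00 over all genes at that level, with 5 members above 0 and 3 below. The 95% counting interval lay above 0 for NFE2L2, TXNRD1 and SRXN1 and below 0 for KEAP1, HMOX1 and GCLC. Intervals lay above 0 for 29.7% of all genes at that level and below 0 for 28.7%, and the counts of 3 of 8 are not read as a result about the members.

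**Figure D1:**
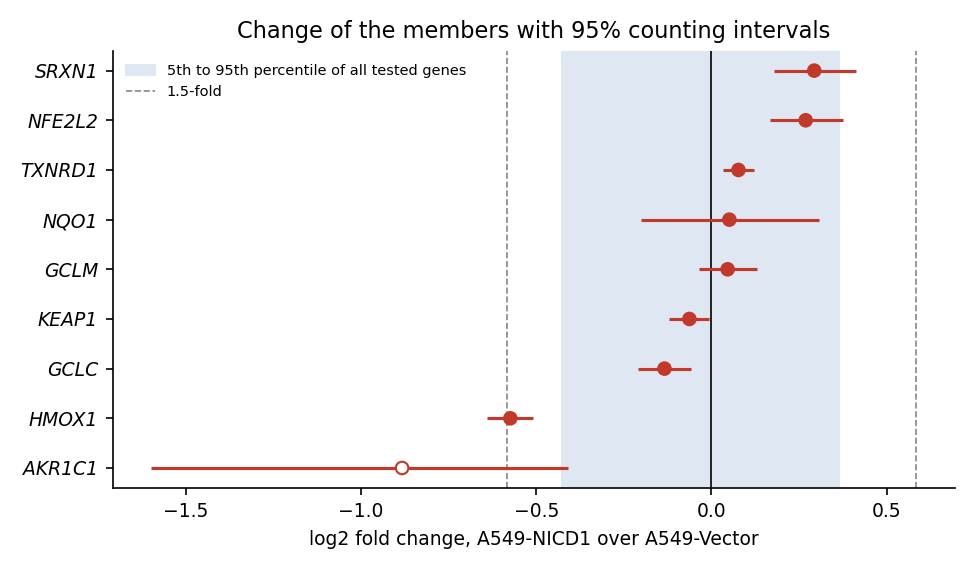
Log2 fold change of A549-NICD1 over A549-Vector (x axis) for 9 members (y axis), with 95% counting intervals as bars; AKR1B10, with 2 reads or fewer per library, is left out. The open point, AKR1C1, has a mean under 1 FPKM, the shaded band spans the 5th to 95th percentile of all genes tested (-0.43 to 0.36), and only HMOX1 among the filled points lies outside it, at -0.57.

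NFE2L2 (ENSG00000116044; chr2:177227595-177392697, minus strand, GRCh38, GENCODE 29) was at 20.1 FPKM in A549-Vector against 23.3 FPKM in A549-NICD1. A549-NICD1 was the higher library, with a log2 fold change of 0.27 (95% Clopper-Pearson counting interval 0.17 to 0.37). Of all genes tested, 79.3% changed by less than this in either direction. KEAP1 (ENSG00000079999; chr19:10486120-10503741, minus strand) was at 41.0 FPKM in A549-Vector against 37.6 FPKM in A549-NICD1. Its log2 fold change of -0.06 (interval -0.12 to -0.01) was small, as 27.3% of the genes tested changed by less, and scaling by itself shifts all values by 0.06. KEAP1 was 2.04 times as abundant as NFE2L2 per kilobase in A549-Vector and 1.62 times in A549-NICD1. Both genes were thus well transcribed in both libraries, with KEAP1 above 89.7% and NFE2L2 above 77.6% of all genes in A549-Vector. Message levels say nothing of the amount of NRF2 protein, which KEAP1 sets after translation, nor of whether KEAP1 carried a mutation.

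HMOX1 (ENSG00000100292; chr22:35380361-35394214, plus strand) encodes haem oxygenase 1, the inducible enzyme that breaks down haem. It stood at 63.5 FPKM in A549-Vector, the highest of the members there, and at 40.8 FPKM in A549-NICD1. HMOX1 was the member with the largest difference among the 8 tested, with a log2 fold change of -0.57 (interval -0.64 to -0.51), or 1.49-fold lower in A549-NICD1. Only 2.37% of all genes tested had a lower log2 fold change. In bulk RNA, fewer cells with the message and less message per cell cannot be told apart. The value sits just inside the 1.5-fold line. Without scaling the difference was 1.56-fold and HMOX1 would be counted as lower. HMOX2, the constitutive haem oxygenase, was at 33.9 and 28.2 FPKM in A549-Vector and A549-NICD1, with a log2 fold change of -0.20 (interval -0.28 to -0.12).

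GCLC and GCLM encode the catalytic and modifier subunits of glutamate-cysteine ligase, the first enzyme of glutathione synthesis. GCLC (ENSG00000001084; chr6:53497341-53616970, minus strand) was at 16.8 FPKM in A549-Vector against 14.6 FPKM in A549-NICD1, with a log2 fold change of -0.13 (interval -0.21 to -0.06). GCLM (ENSG00000023909; chr1:93885205-93909456, minus strand) was at 9.73 FPKM in A549-Vector against 9.62 FPKM in A549-NICD1. Its log2 fold change was 0.05 (interval -0.04 to 0.13), so no difference was detectable at this depth beyond counting error. The ratio of GCLC to GCLM was 1.72 in A549-Vector and 1.52 in A549-NICD1.

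TXNRD1 encodes the cytosolic thioredoxin reductase, which recharges thioredoxin with electrons from NADPH. TXNRD1 (ENSG00000198431; chr12:104215779-104350305, plus strand) was at 40.9 FPKM in A549-Vector against 41.3 FPKM in A549-NICD1, with a log2 fold change of 0.08 (interval 0.03 to 0.12) that was 0.01 without scaling. It had the most recovered reads of the 10 members, 7972 and 8043, and thus the narrowest interval. Both remaining thioredoxin reductases were lower in level than TXNRD1. TXNRD2, the mitochondrial enzyme, was at 18.7 FPKM in A549-Vector against 20.5 FPKM in A549-NICD1, and TXNRD3 at 3.06 and 2.48 FPKM. SRXN1 (ENSG00000271303; chr20:646615-653370, minus strand) encodes sulfiredoxin, which repairs overoxidized peroxiredoxins. It was at 16.6 FPKM in A549-Vector against 19.6 FPKM in A549-NICD1, with a log2 fold change of 0.29 (interval 0.18 to 0.41), the highest of the members. The annotation has a second gene on the same strand, AL121758.1, that holds 84.6% of the 100-base windows of the SRXN1 transcript and is not named in the tables, so which reads were assigned to SRXN1 is uncertain. The same holds to a lesser degree for NFE2L2, of whose exon bases 17.6% lie in AC019080.1 on the same strand. Of the exon bases of NQO1, 17.7% lie in the antisense gene AC092115.2, whose reads are separable only if the counting used the strand.

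NQO1, AKR1C1 and AKR1B10 reduce quinones, steroids and aldehydes, and are the members that A549 cells are best known for. All stood at the bottom of the group. NQO1 (ENSG00000181019; chr16:69706996-69726951, minus strand) was at 2.16 FPKM in A549-Vector against 2.15 FPKM in A549-NICD1, from 262 and 260 reads. Its level was above that of only 41.7% of all genes in A549-Vector, and TXNRD1 was 18.9 times as abundant per kilobase there. The log2 fold change of NQO1 was 0.05 (interval -0.20 to 0.31).

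AKR1C1 (ENSG00000187134; chr10:4963253-4983283, plus strand) was at 1.15 FPKM in A549-Vector against 0.553 FPKM in A549-NICD1, from 77 and 37 reads. The level in A549-NICD1 was the lower one, with a log2 fold change of -0.88 (interval -1.60 to -0.41), and neither library had enough reads to place the change closely. Of 162 windows of 100 bases from AKR1C1 transcripts, 26 also occur in AKR1C2, AKR1C3 or AKR1C4, so its reads may be split with these relatives or not counted. AKR1C2 was at 0.258 and 0.158 FPKM in A549-Vector and A549-NICD1, AKR1C3 at 0.584 and 0.620 FPKM, and AKR1C4 was listed at 0 in both. All 4 AKR1C genes were thus low in both libraries.

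AKR1B10 (ENSG00000198074; chr7:134527592-134541408, plus strand) was at 0.0258 FPKM in A549-Vector against 0.0129 FPKM in A549-NICD1, which is 2 reads and 1 read. At 3 reads or fewer in each library no fold can be given. Its neighbour AKR1B15 had 1 read in each library. AKR1B1, the aldose reductase of most tissues and not a member here, was at 105 FPKM in A549-Vector against 107 FPKM in A549-NICD1. Of the 100-base windows taken every 50 bases from AKR1B10, AKR1B15 and AKR1B1, none occurred unchanged in another gene.

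**Figure D2:**
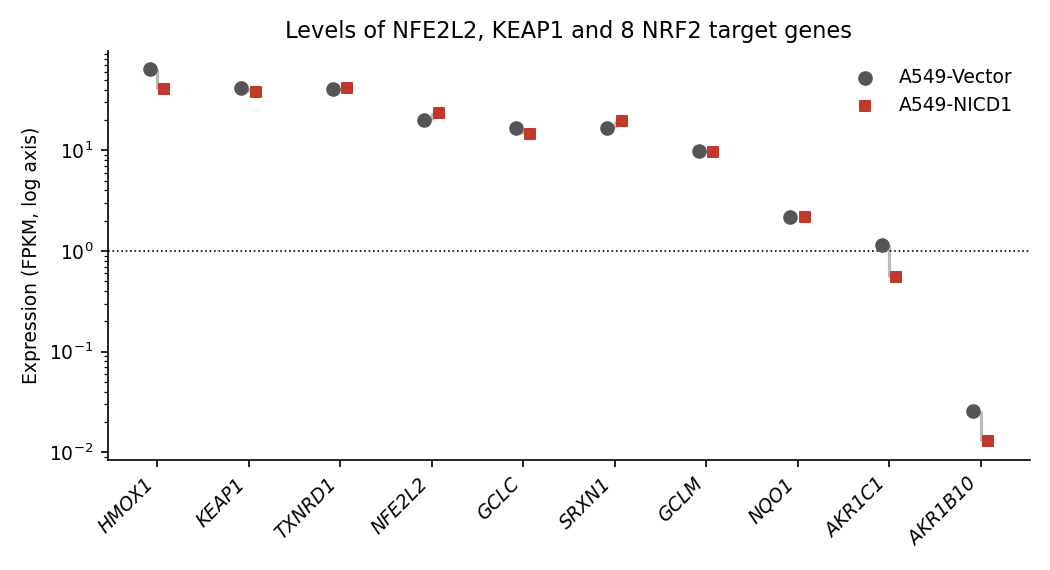
Expression of the 10 members (x axis) in FPKM on a log axis (y axis), 1 point per library, with the dotted line at 1 FPKM. The members run from HMOX1 at 63.5 FPKM to AKR1B10 at 0.0258 FPKM in A549-Vector, and the points of the 2 libraries lie close together for most of them.

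In A549-Vector the order by level was HMOX1, KEAP1, TXNRD1, NFE2L2, GCLC, SRXN1, GCLM, NQO1, AKR1C1 and AKR1B10. Counting intervals of single levels (exact Poisson, 95%) did not separate KEAP1 (39.9 to 42.2 FPKM) from TXNRD1 (40.0 to 41.8 FPKM), nor GCLC (16.2 to 17.4 FPKM) from SRXN1 (15.7 to 17.7 FPKM). In A549-NICD1 the order began with TXNRD1, HMOX1 and KEAP1, and the interval of TXNRD1 (40.4 to 42.2 FPKM) overlapped that of HMOX1 (39.4 to 42.3 FPKM). SRXN1 stood above GCLC in A549-NICD1, with intervals of 18.5 to 20.7 and 14.1 to 15.2 FPKM. From GCLM downward the order was the same in both libraries. Of the 8 targets, 4 reached 10 FPKM in both libraries (HMOX1, TXNRD1, GCLC and SRXN1).

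The other genes of the pathway were taken from lists by role, 130 genes without the members, of which 129 were found and 111 had a mean of at least 1 FPKM. Of these, 4 were at least 1.5-fold higher in A549-NICD1 (MAFF, MAFK, SLC3A2 and CHAC1) and 3 were at least 1.5-fold lower (SESN3, SLC6A6 and CBR3). These counts stand beside 1.97% higher and 2.29% lower among all genes tested. The remaining 104 lay within 1.5-fold. The median over the 111 was -0.06, with 42 above 0 and 69 below. Over all genes tested the median was 0.00, with 6160 above 0 and 6103 below. Scaling shifts both medians alike, as that over all genes was -0.06 without scaling.

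MAFF, MAFG and MAFK encode the small MAF proteins without which NRF2 does not bind DNA. MAFF was at 0.814 FPKM in A549-Vector against 2.24 FPKM in A549-NICD1, with a log2 fold change of 1.41 (interval 1.03 to 2.03) from 47 and 129 reads. It met the mean of 1 FPKM only through A549-NICD1, so its place among the higher genes rests on the library where it is high. MAFK was at 4.30 and 7.04 FPKM, with a log2 fold change of 0.76 (interval 0.46 to 1.09). MAFG, the most abundant of the small MAF genes, was at 14.4 and 17.7 FPKM, with a log2 fold change of 0.36 (interval 0.27 to 0.46). The 3 small MAF genes were thus higher in A549-NICD1, MAFG by less than 1.5-fold. BACH1, the repressor that shares these partners, was at 9.57 and 10.2 FPKM in A549-Vector and A549-NICD1, and NFE2L1, a relative of NRF2 that drives proteasome genes, at 48.3 and 51.1 FPKM. NFE2L3, another relative, was at 8.73 FPKM in A549-Vector against 7.88 FPKM in A549-NICD1.

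None of the 15 genes of NRF2 protein turnover reached 1.5-fold, and their log2 fold changes ran from -0.23 to 0.29. The most abundant were SKP1, a ubiquitin ligase subunit, at 85.0 FPKM in A549-Vector against 95.4 FPKM in A549-NICD1, VCP, a segregase that extracts ubiquitinated proteins, at 84.8 and 89.1 FPKM, and RBX1, the RING subunit of cullin ligases, at 82.0 and 79.3 FPKM.

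Of the 14 measured glutathione genes 12 lay within 1.5-fold, with a median of -0.01, and 2 were higher. SLC3A2, the heavy chain of the cystine and amino acid transporters, was at 66.7 FPKM in A549-Vector against 103 FPKM in A549-NICD1, with a log2 fold change of 0.68 (interval 0.64 to 0.73). CHAC1, which degrades glutathione, was at 1.65 and 4.05 FPKM, with a log2 fold change of 1.30 (interval 1.07 to 1.65). Both are also known targets of the stress factor ATF4, whose part in these differences was not tested. SLC7A11, the cystine transporter chain that pairs with SLC3A2 and a target of NRF2 and ATF4, was named after its values were seen, at 6.24 FPKM in A549-Vector against 6.25 FPKM in A549-NICD1. The highest of this list in A549-Vector were GPX4, which removes lipid peroxides, at 211 FPKM and GPX1 at 133 FPKM. Their levels in A549-NICD1 were 180 and 122 FPKM.

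Among thioredoxin and peroxiredoxin genes 1 of 14 reached 1.5-fold. It was SESN3, a sestrin that restrains growth signalling under stress, at 17.3 FPKM in A549-Vector against 9.37 FPKM in A549-NICD1, with a log2 fold change of -0.82 (interval -0.88 to -0.77). PRDX1, a peroxiredoxin, was the most abundant of this list, at 396 and 334 FPKM. PRDX2 was at 274 FPKM in A549-Vector against 254 FPKM in A549-NICD1, and TXN, thioredoxin itself, at 244 and 230 FPKM.

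The NADPH-supplying genes, which feed all of these reductases, had none of 10 past 1.5-fold. TKT, transketolase, was at 168 and 152 FPKM in A549-Vector and A549-NICD1, TALDO1 at 110 and 101 FPKM, and PGD at 99.6 and 94.1 FPKM.

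Among the reductases 1 of 11 reached 1.5-fold. CBR3, a carbonyl reductase, was at 6.03 FPKM in A549-Vector against 3.61 FPKM in A549-NICD1, with a log2 fold change of -0.66 (interval -0.94 to -0.42). CBR1, its close relative, was at 62.8 and 57.1 FPKM, NQO2 at 25.9 and 20.8 FPKM and AKR7A2, an aflatoxin aldehyde reductase, at 38.2 and 36.1 FPKM. Glutathione transferases and exporters had none of 14 past 1.5-fold. GSTP1 was at 281 FPKM in A549-Vector against 288 FPKM in A549-NICD1, GSTO1 at 50.9 and 49.8 FPKM and MGST1 at 44.1 and 34.3 FPKM, while GSTM1 was listed at 0 in both.

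Of the 11 haem and iron genes none reached 1.5-fold. FTH1, the ferritin heavy chain, was at 423 and 359 FPKM in A549-Vector and A549-NICD1. FTL, the light chain, was at 322 and 336 FPKM, and TFRC, the transferrin receptor, at 42.7 and 44.8 FPKM. Of the superoxide and peroxide enzymes, SOD1 was at 229 and 213 FPKM, CYBA at 80.8 and 70.7 FPKM and SOD2 at 48.5 and 43.4 FPKM, and SOD3 was listed at 0 in both.

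Among the 14 measured genes of the list of other reported NRF2 targets, 1 reached 1.5-fold. SLC6A6, the taurine transporter, was at 13.1 FPKM in A549-Vector against 7.06 FPKM in A549-NICD1, with a log2 fold change of -0.82 (interval -0.92 to -0.74). The median of this list was -0.07. CYP4F11 was listed at 0 in both libraries.

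**Figure D3:**
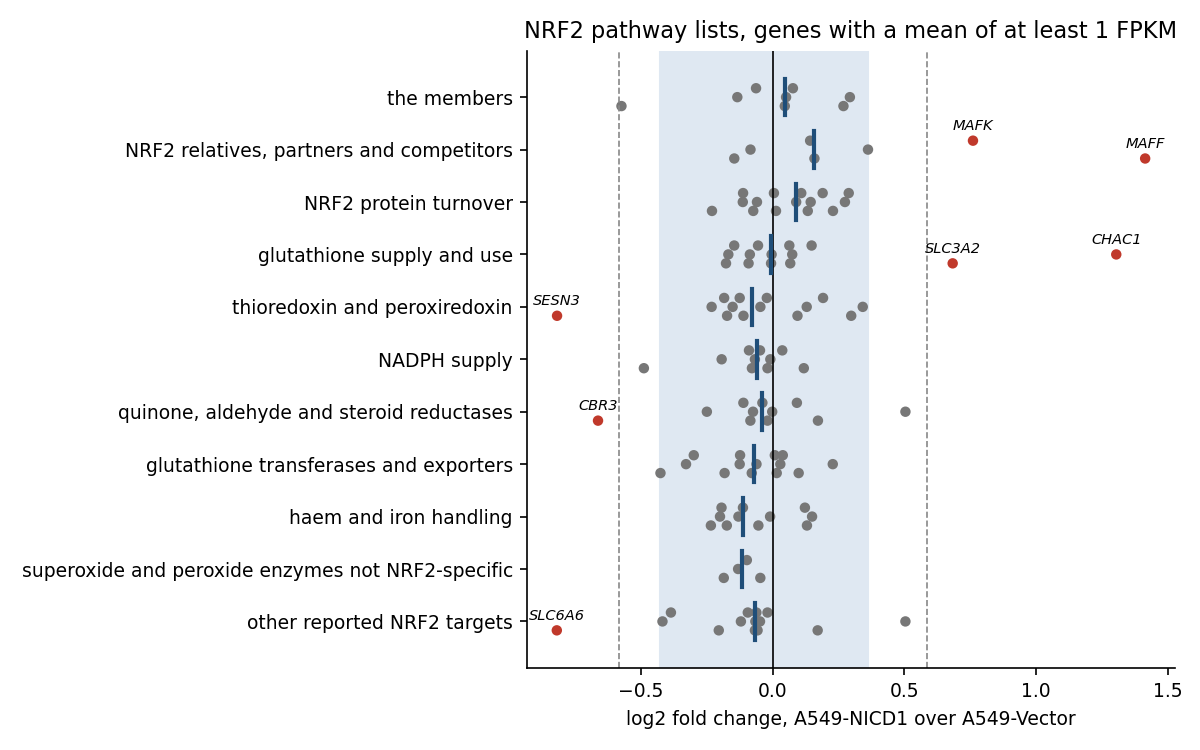
Log2 fold change of A549-NICD1 over A549-Vector (x axis) for each gene with a mean of at least 1 FPKM (points), by list (y axis); blue bars are list medians, dashed lines mark 1.5-fold and the shaded band spans the 5th to 95th percentile of all genes tested. The 7 named red points lie past 1.5-fold, 4 higher and 3 lower, and the list medians run from -0.11 to 0.16.

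The low levels of NQO1, AKR1C1 and AKR1B10 were set beside markers of the labelled line. The marker lists used here were chosen with earlier results of these data known. Their counts are thus no independent check of the label. Of 20 genes listed as A549 markers, 11 were under 1 FPKM in both libraries and 9 at 1 FPKM or more in both. KRT7, KRT19, KRT81, FGA and FGB were at 0 in either library. The others under 1 FPKM were S100A6, LCN2, FGG, CEACAM6, TM4SF1 and ALDH1A1. ALDH1A1 was the highest of these, at 0.269 FPKM in A549-Vector against 0.165 FPKM in A549-NICD1. The sum over the list was 312 FPKM in A549-Vector against 457 FPKM in A549-NICD1, mostly from KRT8, KRT18 and ANXA2. KRT8 was at 85.9 and 176 FPKM and KRT18 at 73.1 and 130 FPKM, so these keratins were higher in A549-NICD1. CDH1, the epithelial cadherin, was lower there, at 2.41 and 1.27 FPKM. LGALS3 was at 19.4 FPKM in A549-Vector against 18.8 FPKM in A549-NICD1, and ANXA1 at 11.1 and 11.4 FPKM. EPCAM was at 2.65 and 2.69 FPKM, S100A4 at 2.49 and 1.65 FPKM, and CPS1 at 1.60 and 1.81 FPKM. Of 12 genes listed as markers of the embryonic kidney line HEK293, a relative of the 293FT cells that the study also cultured, 10 were at 1 FPKM or more in both. PAX2, a kidney transcription factor, was the marker of this list past 1.5-fold, at 3.02 and 1.77 FPKM. The sum over the list was 359 FPKM in A549-Vector against 331 FPKM in A549-NICD1. Its largest part was CDKN2A, a gene of this list that A549 cells are known to have lost, at 139 and 138 FPKM. IGF2BP1 came next, at 84.1 and 77.6 FPKM, while PAX8 and PEG10 were under 1 FPKM in both. Of all 19198 genes, 12263 had a mean of at least 1 FPKM. The A549 list thus went both ways. How specific each gene of either list is to its line was not tested. CDKN2A, the 11 markers under 1 FPKM and the low NQO1, AKR1C1 and AKR1B10 went against the A549 label in both libraries. The 9 A549 markers at 1 FPKM or more in both did not. Gene totals do not identify a line. Which cells the RNA came from was not tested.

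**Figure D4:**
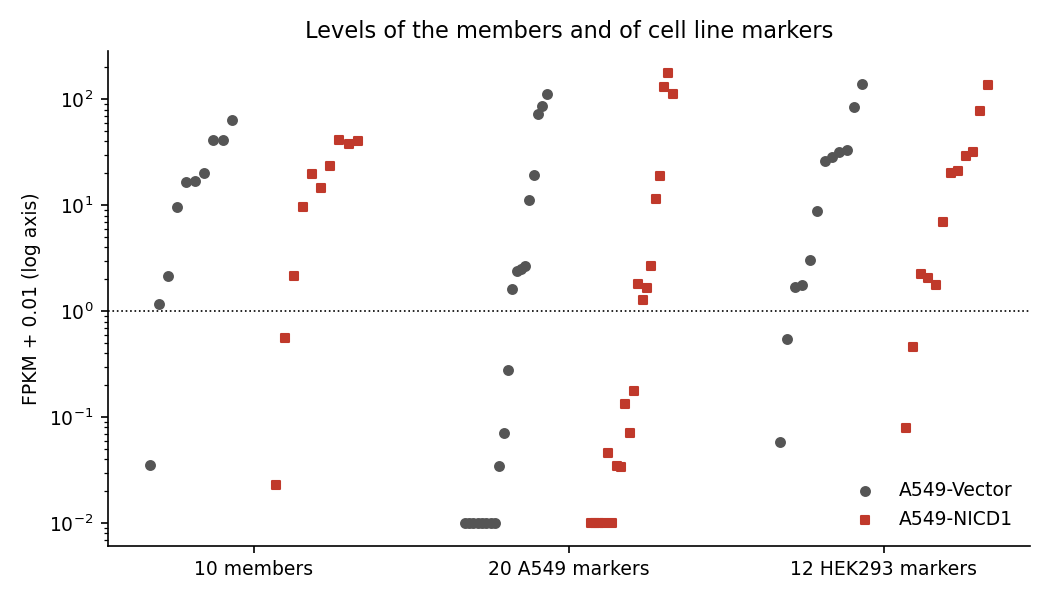
Expression of the 10 members, 20 A549 markers and 12 HEK293 markers (x axis) as FPKM + 0.01 on a log axis (y axis), 1 point per gene and library, with the dotted line at 1 FPKM. In both libraries 11 of the A549 markers and 2 of the HEK293 markers lie below the line, as does AKR1B10, while AKR1C1 lies below it in A549-NICD1 alone.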

How the data were processed

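Polyadenylated RNA from 1 culture of A549-NICD1 and 1 of A549-Vector was sequenced, and samples were grouped by their genotype labels. The authors deposited 1 value per gene and library, treated here as FPKM from the form of the values; the unit, annotation and strand setting of the counting are not given in the sources used here, although the study describes the sequencing as strand-specific. The submitters' processing notes list Bowtie2, HTSeq and hg38. Each table held 19225 genes, and 27 whose symbols had become date numbers were dropped.

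Depths and reads were recovered from the deposited values alone. The most common ratio between the libraries gave the ratio of depths. A base depth was the one that made the largest number of gene lengths whole. The depth was the multiple of it with the most lengths equal to GENCODE 29 transcript lengths. These were a minority (232 of 3469 genes, against 55 at the next depth). Whole reads followed for 17176 of 17178 genes above 0, over lengths from 200 to 30000 bases. If the depth is right, they are lower limits of the true reads. The total of the recovered reads was 89.8% and 89.4% of the depths.

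The scaling factor was a mean of log2 ratios, trimmed by 30% of ratios and 5% of levels at each end. Intervals are Clopper-Pearson intervals on the share of reads. No p-value is given. Depth recovery, scaling and intervals were tested on simulated reads. Members, gene lists and marker lists were chosen with earlier results of these data known. Named from each list were the 3 highest genes in A549-Vector, up to 3 past 1.5-fold and those at 0 in both, with relatives of the members. A gene that this rule names is not reported here. Scaling, pseudocount and filter were varied. Python 3.11.15, SciPy 1.17.1 and pandas 2.3.3 were used.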

Additional observations from a re-analysis of the deposited data

How the results depend on the processing

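No paired analysis was possible because there was 1 library for each condition. The median over the members ranged from -0.01 without scaling, and also with no filter, to 0.05. Without scaling, or with no filter on levels, 1 member was at least 1.5-fold lower instead of 0. This was HMOX1 in the first case and AKR1C1 in the second. Against 242 genes higher and 281 lower, a pseudocount of 1 FPKM gave 161 and 98, no filter gave 1075 and 747, and a mean of at least 5 FPKM gave 104 and 72. Of 54 values of single members under these alternatives, 52 stayed within their counting interval. The others were KEAP1, at -0.13, and TXNRD1, at 0.01, both without scaling. NQO1 and GCLM, near 0, changed sign without scaling. Weighting the trimmed mean by reads, an alternative chosen after seeing the data, changed no member's call. Depth limits AKR1C1 and AKR1B10 most.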
